A study of Homo sapiens with 6 samples.

Results

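Ferroptosis is a form of cell death driven by iron-dependent peroxidation of polyunsaturated phospholipids. Beside the arms that handle cystine and iron, it rests on enzymes that load polyunsaturated fatty acids into membranes, on enzymes that feed the oxidation of those lipids, and on systems that quench lipid radicals with reduced coenzyme Q (CoQ) or tetrahydrobiopterin (BH4). Mitochondria bear on this arm because CoQ is carried in the inner membrane and because voltage-dependent anion channels (VDACs) of the outer membrane are bound by the ferroptosis inducer erastin.

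The mRNA of 10 genes of this lipid and CoQ arm was examined. They were chosen by symbol, by a rule that uses no measured value but with earlier results of these data known, and all 10 have a row among the 19845 gene symbols counted. ACSL4, ACSL3 and LPCAT3 activate fatty acids or insert them into phospholipids. POR, ALOX5 and SAT1 are tied to lipid oxidation. AIFM2 and GCH1 belong to the CoQ and BH4 defences, and VDAC2 and VDAC3 are the channels. Of the 10, 9 passed edgeR's filter on low counts and ALOX5 did not.

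The RNA came from Molm13, a human acute myeloid leukemia line with an MLL rearrangement, engineered to express Cas9. All cultures were transduced with the lentiviral guide vector ipUSEPR and kept under puromycin, 3 with sgCtrl guides against non-essential sequences and 3 with sgCOX4I1 guides against COX4I1, a nuclear-encoded subunit of mitochondrial Complex IV. The study describes independent guide sequences within a group, so the spread between libraries #1, #2 and #3 includes differences between guides. The cells were pools of 1 line, and the time of harvest is not given in the sources used here.

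Library totals ran from 17241014 to 30861943 counts. COX4I1 mRNA, the transcript that was targeted, stood at 26.7%, 76.7% and 27.0% of the sgCtrl mean in sgCOX4I1 #1, #2 and #3. All lay below the sgCtrl range of 93.9% to 104% (log2 fold change -1.21, standard error 0.29, edgeR adjusted p = 0.0512). Library sgCOX4I1 #2 thus kept most of the transcript. The mRNA level does not give the loss of protein, which is not part of these data. By immunoblot, the paper reports less COX4I1 protein in Molm13 cells with independent sgCOX4I1 sequences. All 11 myeloid markers that were checked, among them CD33, SPI1, FLT3 and LYZ, were detected, with a summed level of 3411 to 4209 CPM with sgCtrl and 3907 to 5083 CPM with sgCOX4I1. The erythroid markers HBB, HBA1 and ALAS2, and the T cell markers CD3D and CD3G, had 0 counts in every library, and of the 5 T and NK, 5 B and 5 epithelial or stromal markers only NKG7, PAX5 and KRT18 reached a mean of 1 CPM. In such bulk samples fewer cells expressing a gene and less RNA per cell cannot be told apart.

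Among the 10 genes, SAT1 was the 1 whose mRNA rose beyond the test threshold after transduction with sgCOX4I1, by 1.46-fold. GCH1 mRNA was 1.36-fold the sgCtrl level, and AIFM2, LPCAT3 and ACSL3 stood at 0.705, 0.856 and 0.841 of it, each with a 95% interval that left out no change but with an adjusted p over 0.05. ACSL4, POR, VDAC2 and VDAC3 differed by at most 1.12-fold, with intervals that included no change. The direction was therefore mixed, with 6 of the 9 tested genes higher and 3 lower in sgCOX4I1.

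Calls were made at 0.05 on Benjamini-Hochberg adjusted p-values of the quasi-likelihood test in edgeR, over the 11861 genes that passed the filter. By this rule 1 of the 9 tested genes was called, where 2.08% of all genes tested were called. None of the 9 also reached a 2-fold change, which 0.202% of all genes did (0.135% higher and 0.0674% lower). At an unadjusted p under 0.05 from the same edgeR fit there were 5 of 9, against 17.3% of all genes. Levels per library are given in CPM, counts scaled to the TMM-normalized size of the library, and a fold change is sgCOX4I1 over sgCtrl. The median log2 fold change of the 9 genes was 0.095, and that of all genes tested was -0.0023.

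**Figure D1:**
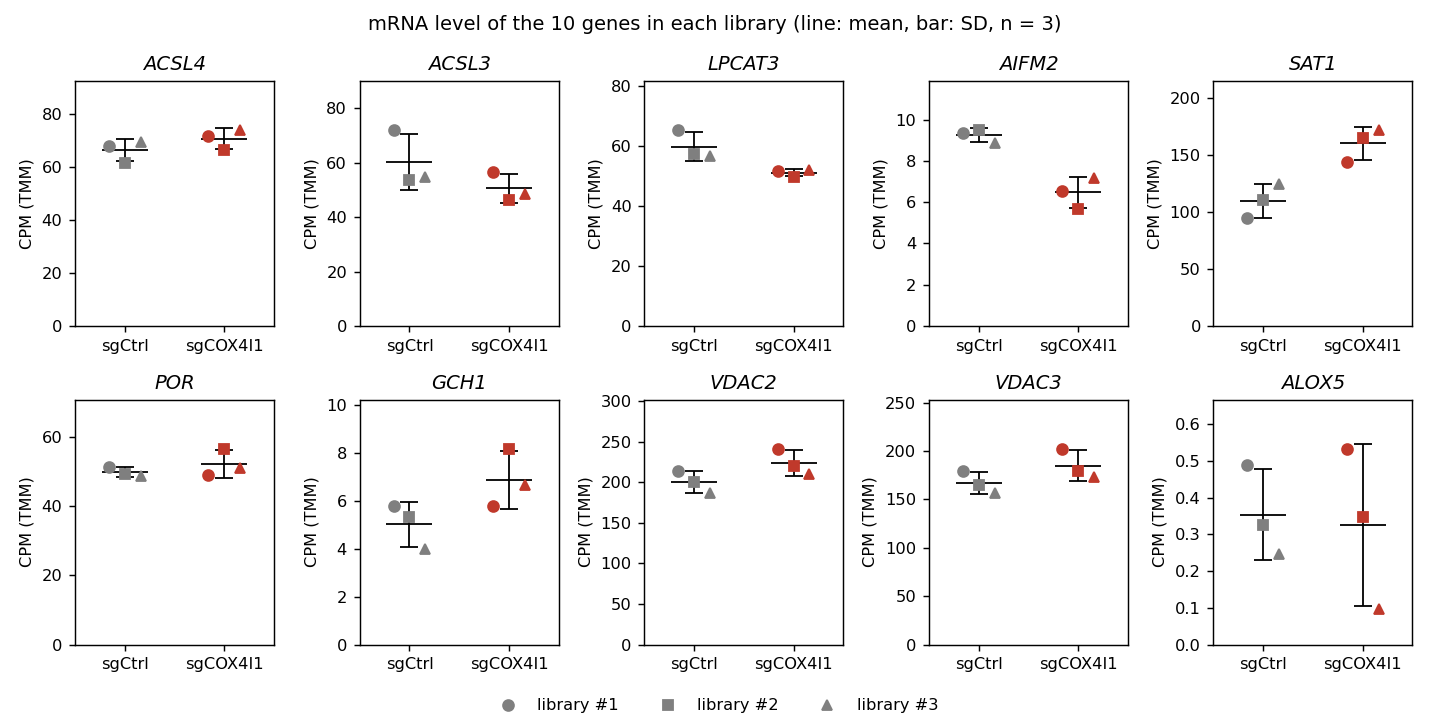
CPM of each of the 10 genes in the 3 sgCtrl (grey) and 3 sgCOX4I1 (red) libraries, on axes that start at 0, with the marker shape giving the library number, the line the mean and the bar the SD. SAT1 and GCH1 lie higher, and AIFM2 and LPCAT3 lower, in all 3 sgCOX4I1 libraries, although for GCH1 the 2 libraries #1 almost coincide.

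SAT1 (chromosome X, plus strand, 23783173 to 23786210, in GRCh38 with GENCODE 44) encodes the acetyltransferase that starts the breakdown of spermidine and spermine. It is a known p53 target whose induction favours lipid peroxidation. Of the bases of its canonical transcript, 8.58% also belong to exons of another gene on the same strand, so reads there could have been mixed or dropped. In sgCtrl #1, #2 and #3 the SAT1 level was 94.8, 110.5 and 125 CPM, and it was 144, 165 and 172 CPM in sgCOX4I1 #1, #2 and #3. The lowest sgCOX4I1 library lay above the highest sgCtrl library. The means were 110.0 ± 14.96 and 160.4 ± 14.7 CPM (SD, n = 3 libraries each). The log2 fold change was 0.54 (standard error 0.10, 95% interval 0.33 to 0.76, edgeR adjusted p = 0.0157), the 73rd smallest p of the 11861 genes. A two-sided exact permutation test of the 6 libraries gave p = 0.1, the smallest p that 3 against 3 allow. The call was lost without sgCtrl #2, sgCOX4I1 #2 or sgCOX4I1 #3 (edgeR adjusted p of 0.147, 0.0969 and 0.0576). In those fits the log2 fold change of SAT1 was 0.55, 0.52 and 0.49. The genes called in the whole table then numbered 24, 51 and 89, against 247 with all 6 libraries. With each of the 6 libraries left out, the log2 fold change of SAT1 stayed between 0.45 and 0.65.

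The promoter of SAT1 is shown because this is the gene whose transcript was called. The 250 bases before its RefSeq start (GRCh38.p14, plus strand, chrX:23782923-23783172) read 5′ to 3′ as follows, with matches to the CCAAT box, searched as CCAAT on both strands, in capitals.
SAT1: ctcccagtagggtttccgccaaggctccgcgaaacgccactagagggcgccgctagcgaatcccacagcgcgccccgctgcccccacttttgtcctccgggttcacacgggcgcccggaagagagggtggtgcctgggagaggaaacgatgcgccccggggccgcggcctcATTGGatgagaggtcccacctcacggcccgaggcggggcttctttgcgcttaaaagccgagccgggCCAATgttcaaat
The matches lie at -79 to -75 on the opposite strand and at -13 to -9 on the strand of the gene, counted from the RefSeq start. The SAT1 window overlaps 1 GENCODE exon. Promoter windows were found for 6 of the 10 genes, as 7 windows because VDAC2 has more than 1 start. CCAAT was present in 3 of these 7 windows (ACSL3, LPCAT3 and SAT1) and in 32.0% of the 35116 RefSeq windows of the same length. The core of the C/EBP-ATF element bound by ATF4, searched as TGATGNAA on both strands, was in 0 of the 7 windows and in 3.14% of all windows.

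SAT1 stands within polyamine turnover, and the other genes of that pathway were taken from a list written from general knowledge. Of its 11 genes, all of which were tested, 2 rose (SAT1 and ODC1) and 0 fell, against 1.06% and 1.02% of all genes tested. The list was drawn up around SAT1, and of its 10 other genes 1 rose. Of the 11 genes, 9 lay above 0, and the median log2 fold change was 0.19. At an unadjusted p under 0.05 there were 6 of the 11, SAT1 included, against 17.3% of all genes. ODC1, which makes putrescine and so opens polyamine synthesis, rose from 95.8 ± 8.20 to 126 ± 11.9 CPM (SD, n = 3 each), by 0.40 on the log2 scale (standard error 0.09, edgeR adjusted p = 0.0364). SRM, which makes spermidine, and AMD1, which supplies the aminopropyl donor, had log2 fold changes of 0.21 and 0.19 with adjusted p of 0.178 and 0.187 from the edgeR fit. SAT2, the paralog of SAT1, had 8.84 ± 1.09 and 11.01 ± 0.735 CPM (SD, n = 3 each; edgeR adjusted p = 0.263). In 6 of the 11 genes all sgCOX4I1 libraries lay above all sgCtrl libraries, which 11.3% of all genes tested did. Genes of both synthesis and breakdown were thus among those with higher values. The ODC1 call was lost without sgCtrl #2, sgCtrl #3, sgCOX4I1 #1 or sgCOX4I1 #2 (edgeR adjusted p of 0.166, 0.0790, 0.0736 and 0.163).

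Over the 6 libraries the genes whose log2 CPM followed SAT1 most closely, among 8995 with a mean of at least 10 CPM, were MS4A6A (Pearson r = 0.998), SLC44A1 (0.996) and MTURN (0.994). In all, 237 genes had an r over 0.9 with SAT1, and the points share the libraries and the group difference. LYZ, the lysozyme of monocytic cells, was likewise lowest in library #1 and highest in library #3 of each group, with 1149, 1520 and 2099 CPM in the sgCtrl libraries and 2025, 3021 and 3103 CPM in those with sgCOX4I1 (log2 fold change 0.77, edgeR adjusted p = 0.0534). MPO, the myeloperoxidase of granulocytic precursors, fell from 227 ± 8.27 to 109 ± 6.57 CPM (SD, n = 3 each; log2 fold change -1.06, edgeR adjusted p = 1.6e-05). The other 9 myeloid markers checked were not called, with log2 fold changes from -0.23 (FLT3) to 0.15 (CD33), among them -0.16 for ITGAM and 0.0065 for CSF1R, which monocytic cells also carry. LYZ and MPO were chosen after their values were seen, and the part of these markers in the SAT1 result was not tested.

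ACSL4 encodes the acyl-CoA synthetase that prefers arachidonic and adrenic acid and thereby supplies the lipids that are peroxidized in ferroptosis. The gene is found at 109624244 to 109733403 of chromosome X, minus strand. ACSL4 mRNA was 67.9, 61.6 and 69.4 CPM in the sgCtrl libraries and 71.7, 66.5 and 74.0 CPM in the sgCOX4I1 libraries, so the groups overlapped. At 0.09 (standard error 0.08), its log2 fold change had a 95% interval of -0.08 to 0.27, that is from 0.948-fold to 1.20-fold.

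ACSL3 (chromosome 2, plus strand, 222860942 to 222944639) activates monounsaturated fatty acids such as oleic acid, whose incorporation counters ferroptosis. Its mRNA was 72.0, 53.6 and 54.8 CPM with sgCtrl and 56.7, 46.5 and 48.5 CPM with sgCOX4I1. The sgCtrl #1 library stood above the other two of its group, and sgCOX4I1 #1 lay between sgCtrl #3 and sgCtrl #1. This gave a log2 fold change of -0.25 (standard error 0.11, 95% interval -0.50 to -0.0034), with an edgeR adjusted p of 0.283, and it was -0.10 without sgCtrl #1. The quotient of ACSL4 over ACSL3 CPM within a library, formed after the values were seen, was 0.943, 1.15 and 1.27 in sgCtrl and 1.27, 1.43 and 1.53 in sgCOX4I1. Its highest sgCtrl value and lowest sgCOX4I1 value met at 1.27, and the two-sided exact permutation test gave p = 0.2. Other quotients formed after the values were seen did separate the groups. ACSL4 over LPCAT3 was 1.04 to 1.22 in sgCtrl and 1.34 to 1.42 in sgCOX4I1. GCH1 over AIFM2 was 0.448 to 0.616 in sgCtrl and 0.884 to 1.44 in sgCOX4I1. For each of them the two-sided exact permutation test gave p = 0.1, the smallest p that 3 against 3 allow.

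LPCAT3 encodes the lysophospholipid acyltransferase that places polyunsaturated acyl chains into phosphatidylcholine and phosphatidylethanolamine, the step after ACSL4. LPCAT3 mRNA was 65.4, 57.4 and 56.9 CPM with sgCtrl and 51.8, 49.7 and 52.1 CPM with sgCOX4I1. Each sgCOX4I1 library lay below each sgCtrl library, and the SD within sgCOX4I1 was 1.29 CPM. The log2 fold change was -0.22 (standard error 0.08, 95% interval -0.40 to -0.05, edgeR adjusted p = 0.172). The gene covers 6976185 to 7018477 of chromosome 12, minus strand, and 67.4% of the bases of its canonical transcript also belong to exons of EMG1 on the opposite strand. The library kit was directional, but the strand setting used for counting is not given in the sources used here, so reads of both genes could have been mixed or dropped. For EMG1 itself the log2 fold change was 0.05, with a standard error of 0.11 (edgeR adjusted p = 0.855).

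The wider list of acyl-CoA synthetases, desaturases and acyltransferases had 17 genes, of which 15 were tested. Of these, 0 rose and 2 fell, against 1.06% and 1.02% of all genes tested. The median log2 fold change of the list was -0.15. FADS2, the desaturase that opens the synthesis of long polyunsaturated fatty acids, fell from 43.5 ± 7.68 to 19.4 ± 5.21 CPM (SD, n = 3 each), for a log2 fold change of -1.16 (standard error 0.165, edgeR adjusted p = 0.00302). It was the 1 gene of all pathway lists that also passed the 2-fold threshold. SCD, which makes monounsaturated fatty acids, fell from 768 ± 107 to 498 ± 73.5 CPM (SD, n = 3 each; log2 fold change -0.62, edgeR adjusted p = 0.0163). LPCAT2 had a log2 fold change of 0.26 and was not called (edgeR adjusted p = 0.114). ACSL6 had 0 counts in every library, which allows a level of up to 0.0972 to 0.174 CPM (3 counts over each library's unscaled total, counting error only). FADS2 was called in each of the 13 alternative fits, and SCD in all but those without sgCtrl #2, sgCOX4I1 #2 or sgCOX4I1 #3 (edgeR adjusted p of 0.0756, 0.107 and 0.0522).

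Ether phospholipids are a further source of peroxidizable chains. A list of their enzymes with factors of peroxisome assembly had 12 tested genes, with 0 higher and 1 lower past the threshold. Of all genes tested, 1.06% were higher and 1.02% lower past it. At an unadjusted p under 0.05 there were 3 of the 12, against 17.3% of all genes. The gene that fell was PEX6, which encodes an ATPase that recycles the peroxisomal import receptor, from 52.0 ± 3.61 to 34.8 ± 5.57 CPM (SD, n = 3 each; log2 fold change -0.58, edgeR adjusted p = 0.0178). PEX6 was not called without sgCtrl #2, sgCOX4I1 #2 or sgCOX4I1 #3 (edgeR adjusted p of 0.156, 0.101 and 0.0613). AGPS, an enzyme of ether lipid synthesis itself, had a log2 fold change of 0.21 (edgeR adjusted p = 0.184), and PEX19 had 0.28 (adjusted p = 0.174).

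POR, cytochrome P450 oxidoreductase, passes electrons from NADPH and can feed lipid peroxidation. It is encoded at 75899200 to 75986855 of chromosome 7, plus strand. POR mRNA was 51.3, 49.2 and 48.7 CPM with sgCtrl and 48.8, 56.5 and 50.9 CPM in sgCOX4I1, with overlapping groups. The log2 fold change was 0.07 (standard error 0.08, 95% interval -0.11 to 0.24), which leaves room for a change of at most 1.18-fold upward or 0.926-fold downward. Without sgCOX4I1 #2, the highest of the 6 libraries, it was 0.0059.

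ALOX5, the arachidonate lipoxygenase of leukotriene synthesis (chromosome 10, plus strand, 45374176 to 45446119) was near the limit of detection. It had 9, 6 and 5 counts in sgCtrl and 12, 6 and 3 counts in sgCOX4I1, or 0.0959 to 0.534 CPM. The exact 95% Poisson interval of the 3 counts in sgCOX4I1 #3 ran from 0.0198 to 0.28 CPM, and that of the 9 counts in sgCtrl #1 from 0.224 to 0.931 CPM, both for counting error only. A difference between the groups was not detectable at this depth. Without the filter on low counts the log2 fold change was -0.17 with a standard error of 0.71 (edgeR adjusted p = 0.939).

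The other lipoxygenases were also near the limit of detection. ALOX15, the lipoxygenase most often linked to ferroptosis, had 5 to 14 counts per library and ALOX12 had 4 to 22, while ALOX12B and ALOXE3 had 0 counts in every library. ALOX5AP, the protein that presents arachidonic acid to ALOX5, had 9.21 ± 0.887 and 10.1 ± 1.64 CPM (SD, n = 3 each; edgeR adjusted p = 0.732). Of the 12 genes on the lipid oxidation list, 6 were tested. Over all genes tested, edgeR called 2.08%, and 17.3% had an unadjusted p under 0.05. None of the 6 was called by edgeR, and 1 had an unadjusted p under 0.05. That gene was CYBB, the catalytic subunit of the phagocyte NADPH oxidase, with 8.12, 10.2 and 15.3 CPM with sgCtrl and 13.8, 24.9 and 24.3 CPM in sgCOX4I1 (log2 fold change 0.90, standard error 0.23, edgeR adjusted p = 0.0610). The groups overlapped for CYBB, since sgCOX4I1 #1 lay below sgCtrl #3, and without sgCtrl #3 the gene was called (log2 fold change 1.20, edgeR adjusted p = 0.00788), as it was without sgCOX4I1 #1 (1.13, 0.00474). With all 6 libraries edgeR also called CYBB when no filter on low counts was used (adjusted p = 0.00186) and with the replicate number as a block (0.00021), whereas DESeq2 gave an adjusted p of 0.164. The cytochrome b5 reductases CYB5R3 and CYB5R1 had log2 fold changes of 0.14 and 0.12 (edgeR adjusted p of 0.387 and 0.571).

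AIFM2, also known as FSP1, reduces CoQ at the plasma membrane and acts against ferroptosis without glutathione. Its mRNA was 9.37, 9.499 and 8.89 CPM with sgCtrl and 6.55, 5.69 and 7.19 CPM with sgCOX4I1. The groups were separate, with sgCOX4I1 #2 the lowest library. The means were 9.25 ± 0.321 and 6.48 ± 0.751 CPM (SD, n = 3 each), and the log2 fold change was -0.50 (standard error 0.15, 95% interval -0.82 to -0.19). At an edgeR adjusted p of 0.0952 AIFM2 was not called, and over the 13 alternative fits the adjusted p ran from 0.0299 to 0.326. The value lay between -0.59 and -0.43 with each library left out. AIFM2 had 98 to 225 counts per library, so that counting alone gives a spread of 6.67% to 10.1% of a value, against an SD of 11.6% of the mean among the sgCOX4I1 libraries and 3.47% among the sgCtrl libraries.

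AIFM2 is encoded at 70098223 to 70132934 of chromosome 10, minus strand. Of its exonic bases, 19.2% also belong to exons of MACROH2A2 on the opposite strand, but only 0.383% of the bases of its canonical transcript do. The strand setting used for counting is not given, so reads there could have been mixed or dropped. The AIFM2 promoter window held the 1 match among the 7 windows to the core of the antioxidant response element, searched as TGACNNNGC on both strands. Of all windows, 10.9% hold this core. The match is shown in capitals with 10 bases on each side (RefSeq, GRCh38.p14, minus strand, chr10:70132829-70132857), 5′ to 3′.
AIFM2: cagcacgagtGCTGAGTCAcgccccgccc
It reads on the strand opposite to the gene, from -22 to -14 of the RefSeq start, its letters also hold the AP-1 motif TGACTCA, and it lies within an exon of 1 GENCODE transcript that starts farther upstream.

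NQO1, a quinone reductase that shares the reduction of CoQ and vitamin K with AIFM2 and is a classical NRF2 target, moved the other way. It rose from 13.8 ± 0.768 to 20.5 ± 3.53 CPM (SD, n = 3 each), by 0.56 on the log2 scale (standard error 0.13, edgeR adjusted p = 0.0437). This call was lost with limma-voom (adjusted p = 0.0641) and without sgCtrl #2, sgCtrl #3 or sgCOX4I1 #2 (edgeR adjusted p of 0.225, 0.0782 and 0.174). The list of CoQ and vitamin K genes had 21 tested members, of which 1 rose and 0 fell, against 1.06% and 1.02% of all genes tested. Of the 21, 12 lay above 0, and the median log2 fold change was 0.016. At an unadjusted p under 0.05 there were 4 of the 21, against 17.3% of all genes. COQ2, the prenyltransferase of CoQ synthesis, had a log2 fold change of 0.22 (edgeR adjusted p = 0.232), DHODH, which reduces CoQ in the inner mitochondrial membrane, had 0.05 (0.845), and MVD of the mevalonate pathway had -0.25 (0.122).

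GCH1, GTP cyclohydrolase, makes the first intermediate of BH4, a radical-trapping antioxidant (chromosome 14, minus strand, 54842008 to 54902826). GCH1 mRNA was 5.77, 5.32 and 3.98 CPM with sgCtrl and 5.79, 8.19 and 6.65 CPM with sgCOX4I1. Although no sgCOX4I1 library lay below a sgCtrl library, sgCOX4I1 #1 and sgCtrl #1 differed by far less than the counting error of their 130 and 106 counts. The log2 fold change was 0.45 (standard error 0.19, 95% interval 0.03 to 0.86, edgeR adjusted p = 0.247), and it ranged from 0.30 to 0.56 with each library left out.

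All 8 genes of BH4 synthesis and recycling were tested and none was called by edgeR, against 2.08% of all genes tested. At an unadjusted p under 0.05 there were 3, against 17.3% of all genes. The median log2 fold change was -0.05. QDPR, which regenerates BH4, had 29.7 ± 1.15 and 35.6 ± 2.32 CPM (SD, n = 3 each; log2 fold change 0.26, edgeR adjusted p = 0.150). GCHFR, the feedback regulator of GCH1, had a log2 fold change of -0.08.

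VDAC2 and VDAC3 form channels for metabolites across the outer mitochondrial membrane. VDAC2 (chromosome 10, plus strand, 75210154 to 75231448) had 214, 201 and 186 CPM with sgCtrl and 242, 221 and 209.8 CPM with sgCOX4I1. VDAC3 (chromosome 8, plus strand, 42391624 to 42405937) had 179, 165 and 156 CPM with sgCtrl and 202, 179 and 173 CPM with sgCOX4I1. For both genes library #1 was the highest and library #3 the lowest of its group, and the groups overlapped. The log2 fold changes were 0.16 (standard error 0.08, 95% interval -0.01 to 0.33, edgeR adjusted p = 0.325) for VDAC2 and 0.15 (standard error 0.08, 95% interval -0.03 to 0.32, edgeR adjusted p = 0.389) for VDAC3.

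The quotient of VDAC2 over VDAC3 CPM lay between 1.19 and 1.23 in all 6 libraries and did not separate the groups (two-sided exact permutation p = 0.4). VDAC1, the third channel, had 214 ± 4.67 and 234 ± 9.06 CPM (SD, n = 3 each; log2 fold change 0.13, edgeR adjusted p = 0.360). GENCODE 44 names 5 pseudogenes of VDAC2 and 1 of VDAC3, so some reads could have been split. None of the 7 genes on the list of channels and partners was called by edgeR, against 2.08% of all genes tested. At an unadjusted p under 0.05 there was 1, against 17.3% of all genes. This was HK1, a hexokinase that docks on VDAC (log2 fold change 0.50, edgeR adjusted p = 0.182). It was called by edgeR without sgCtrl #3 (log2 fold change 0.77, adjusted p = 0.0237) and with the replicate number as a block (0.51, adjusted p = 0.0136). HK2, the other hexokinase listed, had 95.9 ± 29.3 and 83.0 ± 15.4 CPM (SD, n = 3 each; edgeR adjusted p = 0.595).

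**Figure D2:**
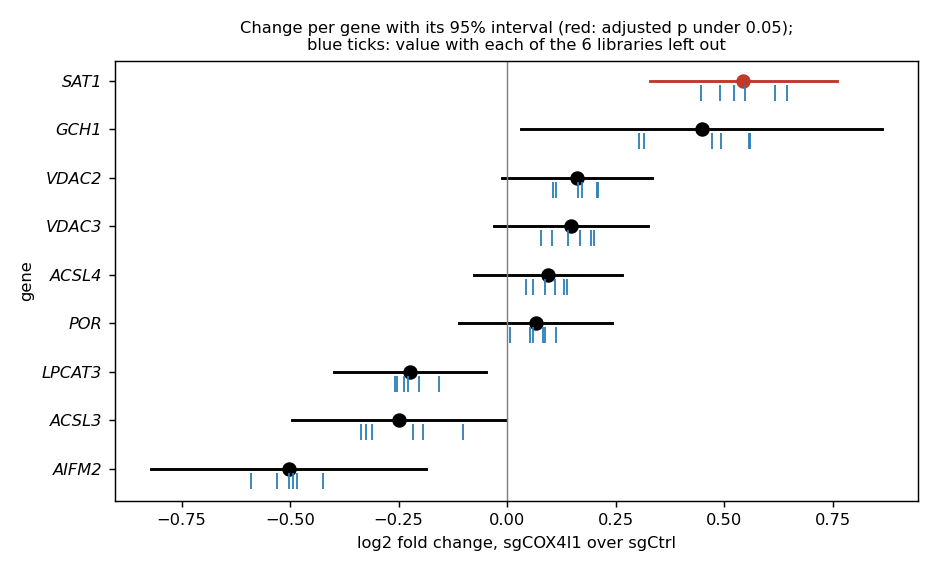
Log2 fold change of the 9 tested genes, sgCOX4I1 over sgCtrl, with the 95% interval of the edgeR fit as a line. Blue ticks give the value with each of the 6 libraries left out. SAT1, in red, is the 1 gene with an adjusted p under 0.05, and none of the 9 changed sign when a library was left out.

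In 2 of the 9 genes (SAT1 and GCH1) all sgCOX4I1 libraries lay above all sgCtrl libraries, where 11.3% of all genes tested did so. In another 2 (AIFM2 and LPCAT3) they lay below, where 10.4% of all genes did. The sgCOX4I1 #2 library, with 76.7% of the sgCtrl mean of COX4I1, did not stand nearest to sgCtrl for these 4 genes. It had 150% of the sgCtrl mean for SAT1, 163% for GCH1, 61.5% for AIFM2 and 83.1% for LPCAT3. In the same order the values were 131%, 115%, 70.7% and 86.5% in sgCOX4I1 #1, and 156%, 132%, 77.7% and 87.1% in sgCOX4I1 #3. For SAT1, sgCOX4I1 #3 thus lay farther from sgCtrl than #2. COX4I1 protein in these libraries is not part of the data.

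**Figure D3:**
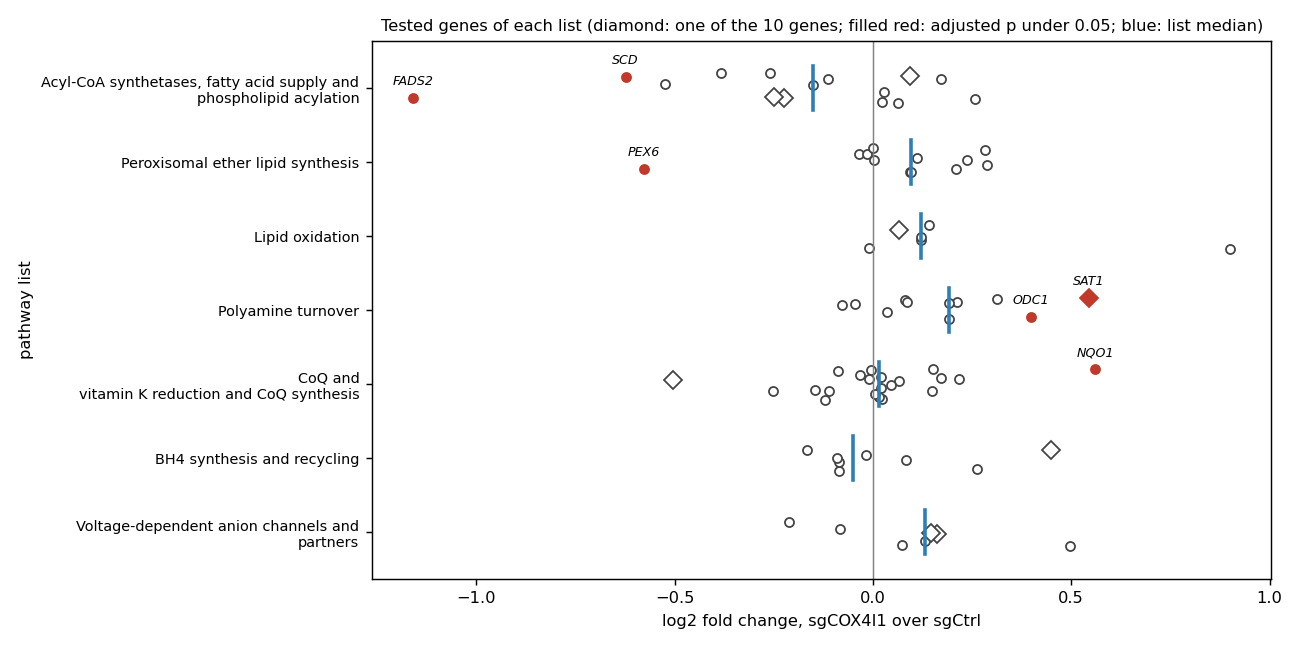
Log2 fold change of every tested gene on the 7 pathway lists, 1 symbol per gene, with the 10 genes of the arm as diamonds where tested. Filled red symbols had an adjusted p under 0.05, namely SAT1, ODC1 and NQO1 to the right of 0 and FADS2, SCD and PEX6 to the left, and a blue bar marks each list's median, from -0.15 to 0.19.

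Together the 7 lists had 80 tested genes, the 9 included, of which 3 rose and 3 fell, against 1.06% and 1.02% of all genes tested. The lists with a median above 0.1 were polyamine turnover, the channels and partners (0.13) and lipid oxidation (0.12), and the list with the lowest median was that of fatty acid supply and acylation.

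To compare levels between genes, CPM was divided by the length of the canonical transcript in kilobases (RPKM). In sgCtrl the order was VDAC2 (132.5 ± 9.10), VDAC3 (118 ± 8.28), SAT1 (105 ± 14.3), LPCAT3 (26.8 ± 2.15), POR (20.3 ± 0.562), ACSL4 (13.6 ± 0.848), ACSL3 (10.8 ± 1.85), AIFM2 (2.95 ± 0.102), GCH1 (1.72 ± 0.320) and ALOX5 (0.140 ± 0.0495), each as mean RPKM ± SD of 3 libraries. VDAC3 overlapped with VDAC2 above it and SAT1 below it in this order, as did ACSL4 with ACSL3, whereas the other neighbours were separate. In sgCOX4I1 the RPKM of SAT1, 153 ± 13.98, overlapped with that of VDAC2, 148 ± 10.8 (SD, n = 3 each). The CoQ and BH4 genes AIFM2 and GCH1 were thus the lowest of the 9 tested genes per length.

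**Figure D4:**
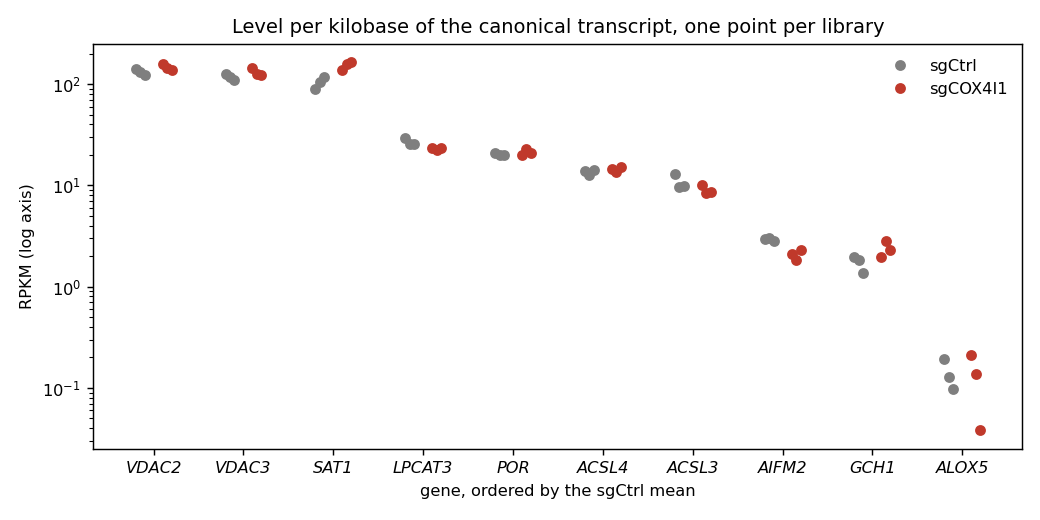
RPKM of the 10 genes on a log axis, 1 point per library, grey for sgCtrl and red for sgCOX4I1, ordered by the sgCtrl mean. The genes fall from 132.5 RPKM for VDAC2 to 0.140 for ALOX5, and SAT1 reaches the level of VDAC2 in sgCOX4I1.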

How the data were processed

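The authors deposited raw, whole-number read counts for 19845 gene symbols in 6 libraries, without normalization. The submitters' processing notes name STAR 2.6.0a and GRCh38, and the table's labels add marked duplicates and HTSeq, whereas the methods describe Bowtie2 and RSEM. The annotation and strand setting are not given in the sources used here, and there was no row of unassigned reads. Columns were matched to samples by letter (C for sgCtrl, K for the knockout) and number.

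Counts were normalized by TMM (factors 0.987 to 1.01) and tested with edgeR 4.0.16 in R 4.3.3 (filterByExpr, glmQLFit, glmQLFTest) in 1 fit of the 6 libraries without covariates. Benjamini-Hochberg adjustment covered the 11861 genes kept. Standard errors are the log2 fold change over the root of F. In simulated counts for this comparison, with 11802 genes tested, 88 of 100 genes changed 1.5-fold and 100 of 100 changed 3-fold were recovered. The changed genes were drawn from those above a minimum mean CPM, and the libraries were simulated as independent. GCH1 and AIFM2 lay above that minimum, but the share recovered was not split by level. It therefore does not give the share for genes of a level as low as theirs. Within each group the libraries were further apart than sampling noise (chi-square per degree of freedom 10.98 to 27.5), and p-values measure the spread between these cultures only. Positions, lengths and exon overlaps came from GENCODE 44.

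The 10 genes and the 7 pathway lists were chosen with earlier results of these data known. Named were the 10 genes, COX4I1, up to 3 other genes per list with the smallest adjusted p, and the 3 genes most correlated with a called one. Some items that this rule names are not reported here. EMG1, the other lipoxygenases, ALOX5AP, ACSL6, SAT2, DHODH, LYZ, MPO and the quotients were chosen after values were seen. Alternatives were DESeq2 1.42.0, limma-voom (limma 3.58.1), other scaling and filters, the replicate number as a block, and each library left out.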

Additional observations from a re-analysis of the deposited data

How the results depend on the processing

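With 3 libraries per group the genome-wide counts moved widely. The 247 genes called became 436 with DESeq2, 537 with no filter on low counts and 24 to 561 with each library left out (24 without sgCtrl #2, 51 without sgCOX4I1 #2, 89 without sgCOX4I1 #3 and 561 without sgCtrl #1). With a 2-fold change required, 24 genes became 41 with no filter and 9 to 50 with a library left out. Of the 10 genes, 1 was called in each alternative except with the replicate block and in the 3 fits without sgCtrl #2, sgCOX4I1 #2 or sgCOX4I1 #3, so that leaving out a library gave 0 to 1. Of the pathway genes, 6 were called, and 1 to 7 with a library left out. The log2 fold change of SAT1 ran from 0.45 to 0.65 with a library left out, and none of the 9 tested genes changed sign in any alternative. COX4I1 (adjusted p = 0.0512) passed in 6 of 13 alternatives, with no filter (-1.21), limma-voom (-1.40), the replicate block, and without sgCtrl #1, sgCtrl #3 or sgCOX4I1 #2. It did not pass in the other 7, with adjusted p of up to 0.243 with DESeq2 and 0.273 without sgCtrl #2, and it ran from -1.90 (without sgCOX4I1 #2) to -0.95 with a library left out. Of the other named genes, GCHFR ran from -0.17 to 0.0084 (without sgCtrl #2) and HK2 from -0.43 to 0.012 (without sgCtrl #3) with a library left out. The cause of these shifts was not tested.

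The replicate numbers are not stated to mark a shared batch. The deviations of same-numbered libraries from their group means correlated at 0.38, -0.02 and 0.29 for #1, #2 and #3. Between sgCtrl #3 and sgCOX4I1 #1 the correlation was -0.38, and between sgCtrl #1 and sgCOX4I1 #3 it was -0.32. Libraries #1 and #3 thus differed in a partly shared way in both groups, whereas library #2 did not correlate best with its own number. Since no pairing is stated, the main fit used none, and what the numbers share was not tested. With the replicate block 1408 genes were called, 57 of them with a 2-fold change, as were 20 pathway genes and 4 of the 10 genes, SAT1, ACSL3 (-0.24), LPCAT3 (-0.22) and AIFM2 (-0.51), and COX4I1 stood at -1.39.

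ALOX5, at 3 to 12 counts, is limited by depth.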
